A study of Macaca mulatta with 5 samples.

Results

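A neuron's transmitter identity is set by the enzymes that make its transmitter and the transporters that load it into vesicles or take it back up. The 8 genes described here cover inhibitory, excitatory and monoamine identity: SLC32A1, GAD1, GAD2, SLC6A5, SLC17A6, SLC18A2, TH and DDC. They were chosen by name, with earlier results of these data known. Their rows in the table of 16970 macaque genes were found by symbol, alias or Ensembl ID. Of the 8 genes, 7 were found. GAD1 and GAD2 stand in the table under the aliases GAD67 and GAD65, and DDC was matched by its Ensembl ID. TH, the rate-limiting enzyme of dopamine synthesis, was not analysed here.

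The expression data came from 5 RNA sequencing libraries of rhesus macaque (Macaca mulatta) neural cells derived from embryonic stem cells. The neurons (1 library, labelled as coming from passage 36) had spent 13 days on laminin and gelatin in Neurobasal medium with N2, B27, NEAA and Glutmax, with no factor of the stem cell medium listed. The radial glial progenitor cells (RPGC, 1 library, labelled P36) had spent 7 days in stem cell medium without CHIR99021, which inhibits GSK3 and so turns on WNT signalling. Neuroepithelial stem cells (NESC, 3 libraries, passages 5, 24 and 36) were kept with 3 µM CHIR99021. NESC and RPGC medium both held 5 µM SB431542 (an inhibitor of TGF-beta receptors), 10 ng/ml bFGF and 1000 U/ml hLIF. No cell sorting is described in the labels, and nothing says whether the libraries came from separate cultures.

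GABA is made from glutamate by the glutamate decarboxylases GAD1 and GAD2. SLC32A1 loads GABA and glycine into synaptic vesicles, and SLC6A5 takes glycine back into glycinergic terminals. SLC17A6 loads vesicles with glutamate, SLC18A2 loads them with dopamine, noradrenaline, serotonin or histamine, and DDC makes dopamine and serotonin from their amino acid precursors. In the spinal cord and hindbrain, inhibitory neurons commonly use GABA, glycine or both.

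Levels are given in FPKM, fragments scaled by transcript length and library size, as deposited, and reads are whole reads recovered from the deposited normalized counts. The libraries held 5403437 reads in neurons, 6165818 in RPGC, and 6808232, 5620416 and 7899991 in NESC at passages 5, 24 and 36. NESC values are always listed in that order of passages. Of 7 neuron markers, 6 rose in neurons against NESC (4 without NESC P24), and TUBB3, the neuronal tubulin, stood at 1179 FPKM in neurons, 547 in RPGC and 265, 302 and 249 in NESC. The neuroepithelial factor LIN28A was at 6.16 FPKM in neurons, 109 in RPGC and 178, 327 and 309 in NESC. It fell the most of 4 neuroepithelial markers, whose sum was 262 FPKM in neurons, 945 in RPGC and 778, 1077 and 1023 in NESC. For 5 radial glia markers the sum was 1190 FPKM in neurons, 1828 in RPGC and 1714, 1312 and 313 in NESC. Taken singly against NESC, all 5 had log2 fold changes above 0 in neurons. Of them 2 rose and 0 fell, beside 19.2% and 20.5% over all tested genes. The sum over 5 measured sympathoadrenal and neural crest markers, other possible sources of monoamine genes, was 1.54 FPKM in neurons, 0.339 in RPGC and between 0.649 and 2.40 in NESC. The sum over 3 astrocyte markers was 2.11 FPKM in neurons, 1.09 in RPGC and between 0.424 and 1.44 in NESC. For 3 measured oligodendrocyte lineage markers it was 0.608 FPKM in neurons, 0.788 in RPGC and between 0.716 and 0.927 in NESC.

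In neurons the GABA genes SLC32A1, GAD2 and GAD1 stood far above the other measured genes of the chosen set. SLC32A1 (ENSMMUG00000003376, chromosome 10, 25723846 to 25728737 in the deposited table) was at 29.3 FPKM in neurons. The genome build of these positions was not named in the labels or headers. SLC32A1 was listed at 0 in RPGC and stood at 0.127, 0.135 and 0 FPKM in NESC. These values rest on 198 reads in neurons, 0 in RPGC and 1, 1 and 0 in NESC. The neuron library was the only one with more than 1 read of SLC32A1 and lay above every other library. RPGC and NESC overlapped, with RPGC and passage 36 both at 0.

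GAD2 (ENSMMUG00000012233, chromosome 9, 26386278 to 26472399), the decarboxylase bound to synaptic vesicles, was at 17.5 FPKM in neurons, 0.331 in RPGC and 0.784, 0.0898 and 0 in NESC. It had 183 reads in neurons, 4 in RPGC and 10, 1 and 0 in NESC. GAD1 (ENSMMUG00000015198, chromosome 12, 34501298 to 34544408), the decarboxylase found throughout the cell body, was at 12.2 FPKM in neurons, 0.162 in RPGC and 2.41, 0.579 and 0.170 in NESC. Its reads numbered 201 in neurons, 3 in RPGC and 28, 5 and 4 in NESC. For both decarboxylases neurons were above every other library, and passage 5 was the highest of the NESC libraries. In bulk RNA, more cells of a type and more RNA per cell cannot be told apart.

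**Figure D1:**
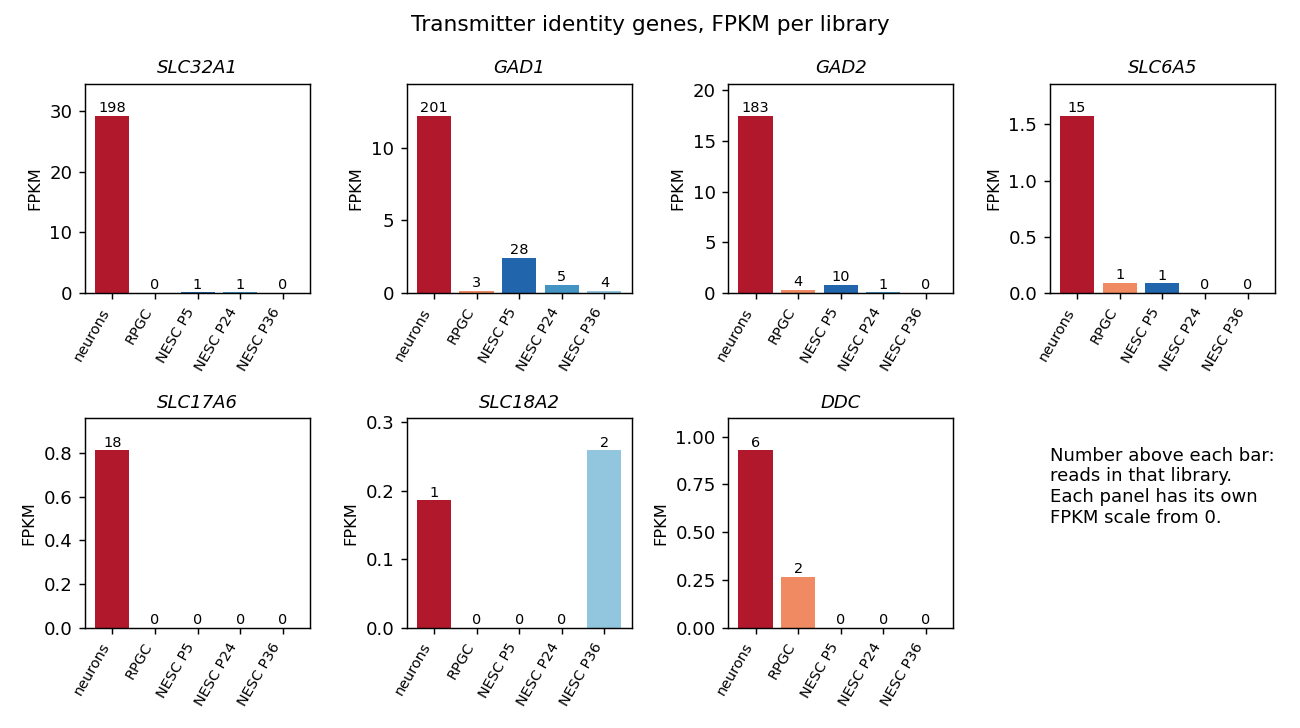
FPKM of each of the 7 measured transmitter identity genes (vertical axis, a separate scale from 0 in each panel) in the 5 libraries (horizontal axis), with the reads behind each bar printed above it. SLC32A1, GAD1 and GAD2 reach 29.3, 12.2 and 17.5 FPKM in neurons on 198, 201 and 183 reads, while the other 4 genes have at most 18 reads in any library.

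Genes were compared with limma on log2(FPKM + 1), with p-values adjusted by the Benjamini-Hochberg method over 12178 genes that reached 1 FPKM and 20 reads in any library. The spread comes from the 3 NESC libraries alone, and the single neuron and RPGC libraries were assumed to vary like them, so a p-value measures spread between NESC passages, which may be technical. Values after ± are limma standard errors. Against NESC, 2344 genes (19.2%) rose in neurons and 2497 (20.5%) fell, together 39.8% of those tested. The members that could be tested were SLC32A1, GAD2 and GAD1, and all 3 rose. SLC32A1 and GAD2 met the read minimum only in neurons and so had to differ, which makes this count a description. Across all tested genes, 474 met the minimum only in neurons.

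SLC32A1 had a log2 fold change of 4.80 ± 0.29 in neurons against NESC (adjusted p = 0.00436). GAD2 had 3.89 ± 0.44 (adjusted p = 0.00608). GAD1 had 2.84 ± 0.66 (adjusted p = 0.0287), and without NESC P24 its adjusted p was 0.0991. The added 1 in log2(FPKM + 1) makes these values understate the change of genes near 0. Against passage 36 alone, the passage from which the neurons were made, the differences in log2(FPKM + 1) were 4.92 for SLC32A1, 4.21 for GAD2 and 3.50 for GAD1, with no test.

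Counted in RPM, the reads of a gene scaled to 1000000 reads per library, the differences were larger. SLC32A1 was at 36.6 RPM in neurons and 0.0984 over the pooled NESC libraries, a 372-fold difference with a 95% exact binomial interval of 102 to 3097 that rests on 2 NESC reads. GAD2 was at 33.9 RPM in neurons and 0.541 in pooled NESC, 62.6-fold (34.2 to 128). GAD1 was at 37.2 RPM in neurons and 1.82 in pooled NESC, 20.4-fold (14.3 to 29.9). These intervals cover counting error only, not variation between cultures, and reads are not independent molecules. On recovered reads, edgeR's quasi-likelihood test gave log2 fold changes of 8.29 for SLC32A1, 5.92 for GAD2 and 4.34 for GAD1 (adjusted p = 0.00123, 0.00843 and 0.0119).

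For GAD1 the size of the difference depended on the unit. The deposited normalized count per FPKM was 19.4 in neurons, 19.2 in RPGC and 10.9, 9.79 and 19.0 in NESC, so 1 read was worth more FPKM at passages 5 and 24 than elsewhere. Neurons stood 5.06-fold above passage 5 in FPKM, and 9.04-fold above it in RPM (95% interval 6.07 to 14.0). GAD2 showed no such gap, at 22.3-fold in FPKM and 23.1-fold in RPM over passage 5. Its normalized count per FPKM was 12.4 in neurons, 12.5 in RPGC and 12.0 and 12.6 at passages 5 and 24.

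**Figure D2:**
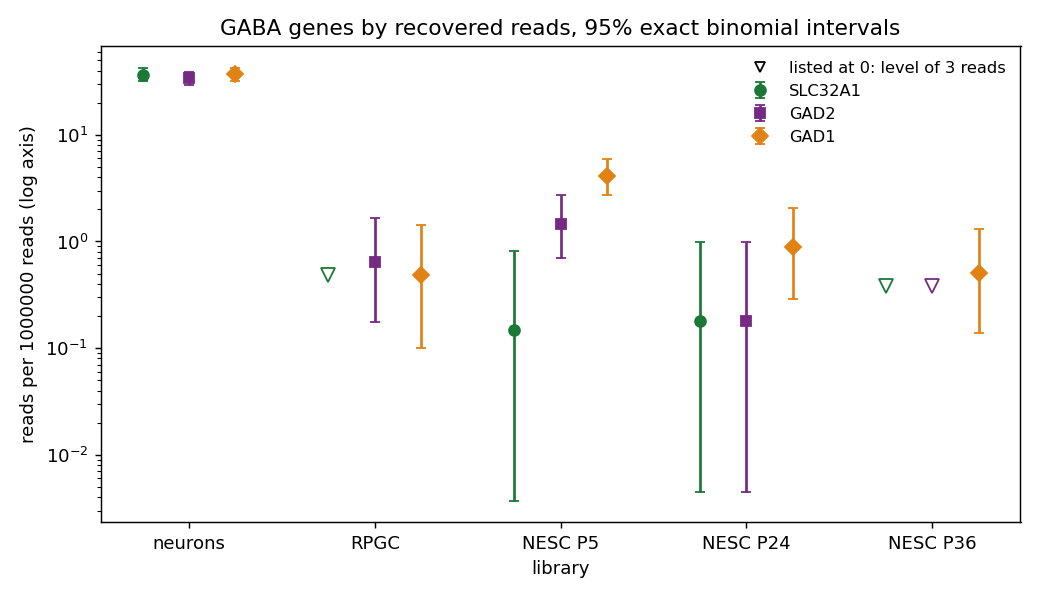
RPM, labelled as reads per 1000000 reads (vertical log axis), of SLC32A1, GAD2 and GAD1 in each library (horizontal axis), with 95% exact binomial intervals for counting error, and open triangles at the level of 3 reads where a gene is listed at 0. All 3 genes lie between 33.9 and 37.2 RPM in neurons, and GAD1 at passage 5 is at 4.11.

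The measured genes of the chosen set for glycine, glutamate and monoamine identity had few reads in every library, too few to enter the test. SLC6A5 (ENSMMUG00000009053, chromosome 14), the glycine transporter, was at 1.58 FPKM in neurons, 0.0919 in RPGC and 0.0871, 0 and 0 in NESC, from 15, 1, 1, 0 and 0 reads. In RPM it was 56.4-fold higher in neurons than in pooled NESC, with an interval of 8.68 to 2376 set by a single NESC read. Its deposited locus, 50284880 to 52270791, is shared with 4 other genes. Of these NAV2 had 655 reads in neurons, 821 in RPGC and between 528 and 867 in NESC, and PRMT3 had 129 in neurons, 251 in RPGC and between 180 and 521 in NESC. Neither was higher in neurons than in every other library, as SLC6A5 was. Whether reads at this locus were assigned to the right gene was not tested.

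SLC17A6 (ENSMMUG00000020368, chromosome 14, 49497197 to 49538561), the vesicular glutamate transporter VGLUT2, was at 0.813 FPKM in neurons on 18 reads and was listed at 0 in RPGC and in all 3 NESC libraries. No fold change is given, because widely used genes were listed at 0 in single libraries too: the amino acid transporter SLC38A1 had 1712 reads in neurons and 0 at passage 36. Within the neuron library SLC32A1 stood 36.0-fold above SLC17A6 in FPKM. SLC17A7, which encodes VGLUT1, was at 0.320 FPKM in neurons, 0.556 in RPGC and 0.0902, 0.101 and 0.218 in NESC, with at most 6 reads in a library.

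SLC18A2 (ENSMMUG00000014817, chromosome 9, 116864732 to 117176441), the vesicular monoamine transporter VMAT2, had 1 read in neurons, 0 in RPGC and 0, 0 and 2 in NESC. Its levels were 0.186 FPKM in neurons and 0.259 at passage 36, and in RPM neurons over pooled NESC gave 1.88, with an interval of 0.0319 to 36.1. A difference was not detectable at this depth. DDC (ENSMMUG00000019991, chromosome 3, 75806874 to 75907668) was at 0.929 FPKM in neurons on 6 reads and 0.266 in RPGC on 2 reads, and was listed at 0 in all NESC libraries. Neurons over RPGC gave 3.42-fold for DDC in RPM, with an interval of 0.612 to 34.7 that includes no change. SLC18A2 and DDC each share their deposited locus with 1 other gene, PDZD8 and FIGNL1.

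Ordered by FPKM within neurons, SLC32A1 was followed by GAD2, GAD1, SLC6A5, DDC, SLC17A6 and SLC18A2. With 1 neuron library there is no spread to set between neighbours in this order, and DDC and SLC17A6 rest on 6 and 18 reads. Of all genes in the table, 71.0% lay below SLC32A1 in neurons, 59.5% below GAD2 and 51.5% below GAD1. Only 27.1% lay below SLC6A5, 22.8% below DDC, 21.8% below SLC17A6 and 13.3% below SLC18A2. In FPKM GAD2 stood 1.43-fold above GAD1 in neurons, and at passage 5 it was 0.325 times GAD1. These ratios depend on the unit, as a GAD1 read was worth more FPKM at passage 5. By reads GAD2 was below GAD1 in each library, at 183 and 201 in neurons and 10 and 28 at passage 5.

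Setting RPGC against NESC asks what differs after 7 days without CHIR99021. None of the 3 tested members was called, and 0 of 12178 genes (0%) were called in either direction by limma (1709 at an unadjusted p under 0.05). By edgeR 0 genes were called (1616 at an unadjusted p under 0.05). The lowest adjusted p of any gene was 0.292 by limma, so this comparison does not show that a member stayed the same. GAD1 had a log2 fold change of −0.67 ± 0.66 (adjusted p = 0.667), GAD2 of 0.09 ± 0.44 (adjusted p = 0.941) and SLC32A1 of −0.12 ± 0.29 (adjusted p = 0.876). The sign for GAD2 turned without NESC P24 (−0.0050) and without NESC P36 (−0.067). GAD1 and GAD2 in RPGC lay within or just below the range of the 3 NESC libraries. Against pooled NESC, GAD2 in RPGC was at 1.20 times the RPM (95% interval 0.278 to 4.05). GAD1 was at 0.267 times (0.0527 to 0.844), an interval for counting error that lies below 1. Of the pooled GAD1 reads, 28 came from passage 5, 5 from passage 24 and 4 from passage 36. At passage 36, the passage label of RPGC, GAD1 was at 0.506 RPM, beside 0.487 in RPGC.

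Of 7 general neuron markers, STMN2 and DCX were set beside the GABA genes in RPGC, as levels with no test of the difference. By limma all 7 had log2 fold changes above 0 in RPGC against NESC. The neuronal RNA-binding protein ELAVL4 was less steady, at 1.74 without NESC P5 and −0.66 without NESC P36. STMN2, a protein of growing axons, was at 110 FPKM in RPGC and at 159, 19.9 and 6.10 FPKM in NESC, so RPGC lay near passage 5. DCX, which binds microtubules in migrating young neurons, had 50.7 FPKM in RPGC and 19.2, 10.9 and 5.93 in NESC, above all NESC libraries. GAD1 was at 0.487 RPM in RPGC and 4.11 at passage 5, which is 0.118 times the level at passage 5 (95% interval 0.0230 to 0.383, comparing these 2 libraries only). As a share of STMN2 in FPKM, GAD1 came to 0.637% in neurons, 0.147% in RPGC and 1.51%, 2.91% and 2.79% in NESC. The share in RPGC and at passages 24 and 36 rests on 3 to 5 GAD1 reads. A GAD1 read was also worth more FPKM at passages 5 and 24, which raises the shares there.

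Within NESC, most GAD1 and GAD2 reads came from passage 5. GAD1 was at 4.11 RPM at passage 5 and 0.666 over passages 24 and 36, 6.18-fold (95% interval 2.83 to 14.9). GAD2 was at 1.47 RPM at passage 5 and 0.0740 over passages 24 and 36, 19.9-fold (2.83 to 862). SLC32A1 had a single read at passage 5 and a single read at passages 24 and 36 together. Of the 7 neuron markers, 4 were highest in FPKM at passage 5 among NESC and 3 were not. In RPM, STMN2 was 14.0-fold (12.4 to 15.9), the neuronal RNA-binding protein ELAVL4 34.9-fold (19.6 to 68.7) and DCX 2.43-fold (2.02 to 2.94) higher at passage 5. SNAP25, a protein of vesicle release, was at 16.8, 5.05 and 2.64 FPKM in NESC. TUBB3 was highest at passage 24, while MAP2, a dendritic microtubule protein, at 22.7, 28.0 and 53.5 FPKM, and the vesicle protein SYT1, at 5.70, 3.97 and 6.87 FPKM, were highest at passage 36. Summed over 7 neuron markers, the level was 516 FPKM at passage 5 and 371 and 324 at passages 24 and 36, and their part in the GAD1 and GAD2 values was not tested.

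**Figure D3:**
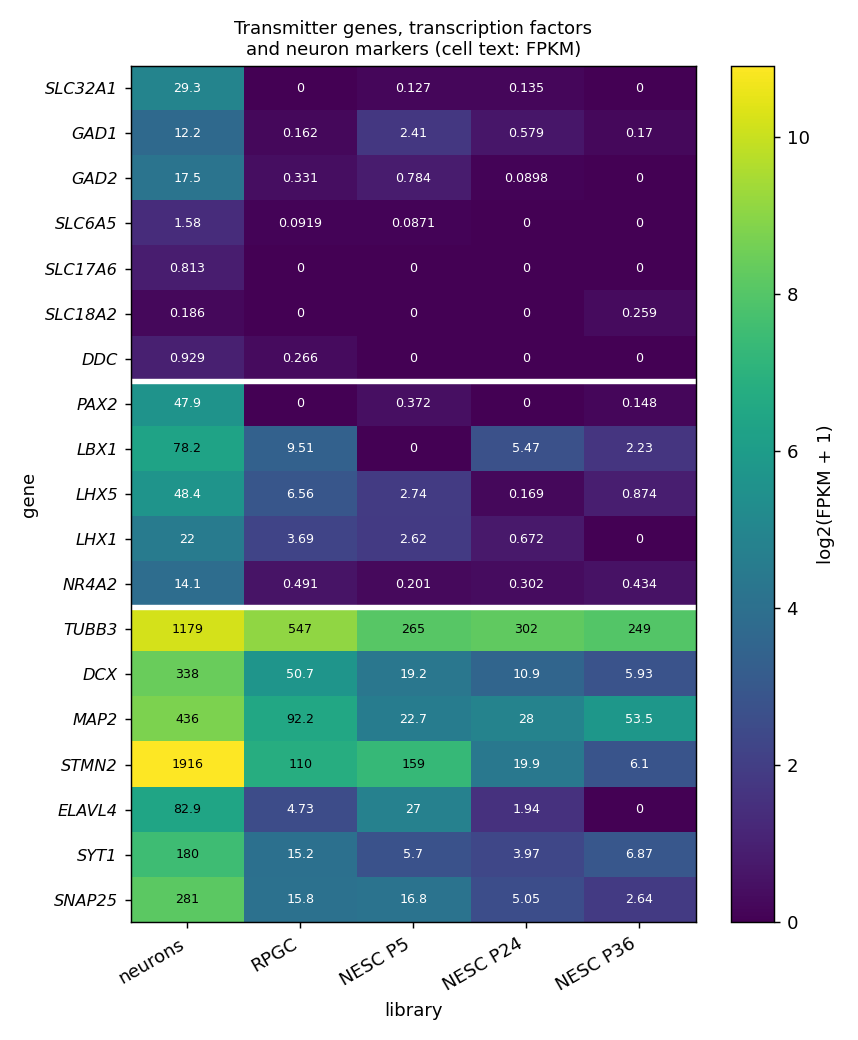
log2(FPKM + 1) as colour, with FPKM printed in each cell, of transmitter genes (top block), transcription factors (middle block) and neuron markers (bottom block) in the 5 libraries (columns). Neurons carry the highest value of every gene shown except SLC18A2. The bottom block shows STMN2 at 110 FPKM in RPGC and 159 at passage 5, where GAD1 is at 0.162 and 2.41 FPKM.

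Neurons were also set against RPGC. By limma 753 genes (6.18%) were higher in neurons and 1083 (8.89%) lower, together 15.1%. SLC32A1 rose in neurons (4.92 ± 0.36, adjusted p = 0.0149), as did GAD2 (3.80 ± 0.54, adjusted p = 0.0225), while GAD1 had 3.51 ± 0.81 and did not pass (adjusted p = 0.0519). Without NESC P24 no gene passed in this comparison (3422 at an unadjusted p under 0.05), with adjusted p = 0.0727 for SLC32A1 and 0.0855 for GAD2. By edgeR SLC32A1 (adjusted p = 0.0102) and GAD1 (adjusted p = 0.0464) passed and GAD2 (adjusted p = 0.0681) did not. GAD2 also missed the threshold at a pseudocount of 0.1 (adjusted p = 0.107), without a read minimum (0.0535) and without any filter (0.0552). This comparison and that against NESC share the neuron library. SLC32A1 and GAD2 met the read minimum only in neurons and so had to differ here too, which makes their calls a description. A single neuron library was set against a single RPGC library, with the spread taken from NESC.

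Of 7 other listed genes of the GABA pathway, 6 were measured and 3 could be tested. Of these, 2 rose in neurons against NESC and 0 fell, beside 19.2% and 20.5% over all tested genes. Of the 2 that rose, 1 had met the read minimum only in neurons. Neither call held without NESC P24. GPHN, the scaffold under GABA and glycine receptors, was at 49.6 FPKM in neurons, 27.1 in RPGC and 28.2, 24.1 and 31.1 in NESC (0.82 ± 0.23, adjusted p = 0.0463). Its call was lost without any of the NESC libraries (adjusted p = 0.0794 without P5, 0.107 without P24 and 0.0651 without P36). ALDH5A1, which breaks down GABA, was at 15.7 FPKM in neurons, 13.9 in RPGC and 7.70, 7.60 and 11.8 in NESC and did not pass (adjusted p = 0.148).

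Of the 6 glycine genes, 4 fell in neurons against NESC and 0 rose, beside 20.5% and 19.2% over all tested genes, and their median log2 fold change was −2.08, beside −0.02 over all genes tested. The 4 are enzymes of serine and glycine metabolism, not of glycine release. SHMT1, which interconverts serine and glycine in the cytosol, was at 1.32 FPKM in neurons, 10.7 in RPGC and 37.4, 20.9 and 23.8 in NESC (−3.57 ± 0.40, adjusted p = 0.00603). GLDC, of the glycine cleavage system, was at 16.9 FPKM in neurons, 90.3 in RPGC and 111, 84.3 and 117 in NESC (−2.54 ± 0.24, adjusted p = 0.00497). GCSH, another part of that system, had −2.43 ± 0.21 (adjusted p = 0.00453), and the mitochondrial enzyme SHMT2 had −1.73 ± 0.30 (adjusted p = 0.0134). AMT, also of the cleavage system, did not pass (−0.21 ± 0.68, adjusted p = 0.819). SLC6A9, a glycine transporter of glia and some neurons, was at 17.4 FPKM in neurons, 14.3 in RPGC and 2.06, 4.38 and 13.7 in NESC and did not pass (adjusted p = 0.220), though without NESC P36 it did (adjusted p = 0.0366). Neurons and passage 36 NESC were close for this transporter, and the early passages were lower.

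For glutamate, 10 of 11 listed genes were measured and 9 tested, of which 4 rose in neurons against NESC and 1 fell (median log2 fold change 1.20), beside 19.2% and 20.5% over all tested genes. Without NESC P24, 2 rose and 1 fell. The genes that rose carry transmitter or its precursor across the cell membrane and do not load vesicles. SLC1A1, a neuronal glutamate uptake transporter, was at 22.5 FPKM in neurons, 0.148 in RPGC and 1.37, 0.431 and 0 in NESC (3.96 ± 0.55, adjusted p = 0.00853). SLC1A2, the uptake transporter best known from astrocytes, was at 12.8 FPKM in neurons, listed at 0 in RPGC, and at 1.66, 0.0537 and 0 in NESC (3.29 ± 0.66, adjusted p = 0.0195, and 0.0748 without NESC P24). SLC1A3, an uptake transporter of radial glia and astrocytes, was at 200 FPKM in neurons, 56.6 in RPGC and 16.8, 37.9 and 23.6 in NESC (2.97 ± 0.46, adjusted p = 0.0106). Beside this, the astrocyte filament gene GFAP had 5 reads in neurons, 2 in RPGC and 0 in all NESC. ALDH1L1, the only 1 of 3 astrocyte markers that was tested, went the other way in neurons against NESC. Its log2 fold change was −0.65 by limma and −2.47 by edgeR, and it did not pass. SLC38A2, a glutamine carrier, was at 88.1 FPKM in neurons, 45.6 in RPGC and 35.8, 29.5 and 51.2 in NESC (1.20 ± 0.34, adjusted p = 0.0464), and its call was lost without NESC P5 or P24 (adjusted p = 0.0963 and 0.101). GLUL, which makes glutamine, fell to 74.4 FPKM in neurons, against 160, 226 and 178 in NESC (−1.31 ± 0.24, adjusted p = 0.0162).

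Among monoamine genes, 13 of 17 were measured and 10 tested, of which 1 rose in neurons against NESC and 3 fell (median log2 fold change −0.31). That is close to the shares over all tested genes, 19.2% and 20.5%, so the count sets nothing apart about this list. MAOA, which degrades monoamines, rose to 23.4 FPKM in neurons, against 4.11, 8.89 and 3.18 in NESC (2.04 ± 0.56, adjusted p = 0.0425), and the call was lost without NESC P5 or P36 (adjusted p = 0.0907 and 0.0637). Of 5 tested genes for the supply of tetrahydrobiopterin, the cofactor of tyrosine and tryptophan hydroxylases, 3 fell, and GCH1 and PTS, which carry out its first steps, did not pass (−0.52 ± 0.69, adjusted p = 0.576, and 0.44 ± 0.32, adjusted p = 0.312). PCBD1, which recycles it, was at 52.0 FPKM in neurons, 203 in RPGC and 288, 249 and 231 in NESC (−2.27 ± 0.19, adjusted p = 0.00453). SPR, which completes its synthesis, was at 0.710 FPKM in neurons, 2.78 in RPGC and 8.09, 3.62 and 6.58 in NESC (−2.00 ± 0.48, adjusted p = 0.0306, and 0.0629 without NESC P36). QDPR, which regenerates it, had −0.88 ± 0.23 (adjusted p = 0.0380), and the call was lost without NESC P5 or P24 (adjusted p = 0.0755 and 0.0969). DBH, which makes noradrenaline, had 1 read in neurons and 0 in the other libraries, and the serotonin enzyme TPH2 had at most 2 reads in any library. The row named TPH1 carries another gene's name in a second annotation, so its place in the plot of the lists is uncertain.

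Of 4 acetylcholine genes 2 were measured and 1 tested. ACHE, which breaks down acetylcholine, was at 8.22 FPKM in neurons, 0.257 in RPGC and 1.47, 0.960 and 0.202 in NESC. It met the read minimum only in neurons and so had to differ, with a log2 fold change of 2.36 ± 0.49 against NESC (adjusted p = 0.0214, and 0.0783 without NESC P24).

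Transcription factors that steer transmitter choice formed a list of 24, of which 18 were measured and 9 tested. In neurons against NESC 6 rose, among them PAX2, LBX1, LHX5, LHX1 and NR4A2, and 0 fell, beside 19.2% and 20.5% over all tested genes. PAX2 and NR4A2 met the read minimum only in neurons and so had to differ, which makes this count a description. PAX2, which in mouse marks inhibitory neurons of the spinal cord and hindbrain, was at 47.9 FPKM in neurons, listed at 0 in RPGC, and at 0.372, 0 and 0.148 in NESC (5.39 ± 0.33, adjusted p = 0.00436). LBX1, a factor of dorsal spinal cord and hindbrain neurons in mouse, was at 78.2 FPKM in neurons, 9.51 in RPGC and 0, 5.47 and 2.23 in NESC (4.85 ± 1.05, adjusted p = 0.0242). LHX5 was at 48.4 FPKM in neurons, 6.56 in RPGC and 2.74, 0.169 and 0.874 in NESC (4.62 ± 0.69, adjusted p = 0.0101). LHX1, which works with LHX5 in inhibitory neurons of the mouse dorsal spinal cord, was at 22.0 FPKM in neurons, 3.69 in RPGC and 2.62, 0.672 and 0 in NESC (3.66 ± 0.76, adjusted p = 0.0213, and 0.0810 without NESC P24). In neurons these 4 factors were above every other library.

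NR4A2, known for switching on dopamine genes in midbrain neurons, was at 14.1 FPKM in neurons, 0.491 in RPGC and 0.201, 0.302 and 0.434 in NESC (3.52 ± 0.30, adjusted p = 0.00453). In the same neuron library SLC18A2 and DDC had 1 and 6 reads. TLX3, which in mouse favours glutamate over GABA identity, had 13 reads in neurons, 0 in RPGC and 0, 5 and 0 in NESC. DLX2 and DLX5, factors of forebrain GABA neurons, had at most 3 reads in any library, while DLX1 was at 14.7 FPKM in neurons, 3.61 in RPGC and 0.476, 3.10 and 8.83 in NESC and did not pass (adjusted p = 0.191). EN2, a midbrain and hindbrain factor, passed as lower in neurons only without NESC P5 (adjusted p = 0.0484).

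Against NESC no gene of these lists passed in RPGC. Against RPGC, 1 GABA gene, 2 glutamate genes, 1 acetylcholine gene and 2 transcription factors (PAX2 at 5.61 ± 0.41, adjusted p = 0.0149, and NR4A2 at 3.34 ± 0.37, adjusted p = 0.0171) rose in neurons. Of these, the GABA gene, ACHE, PAX2 and NR4A2 had met the read minimum only in neurons. In the same comparison 3 glycine genes, 1 glutamate gene and 1 monoamine gene fell. All these calls were lost without NESC P24. Without NESC P5 the glutamate gene that fell (GLUL) no longer passed, and without NESC P36 the calls of SHMT1, GLUL and SLC1A2 were among those lost.

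**Figure D4:**
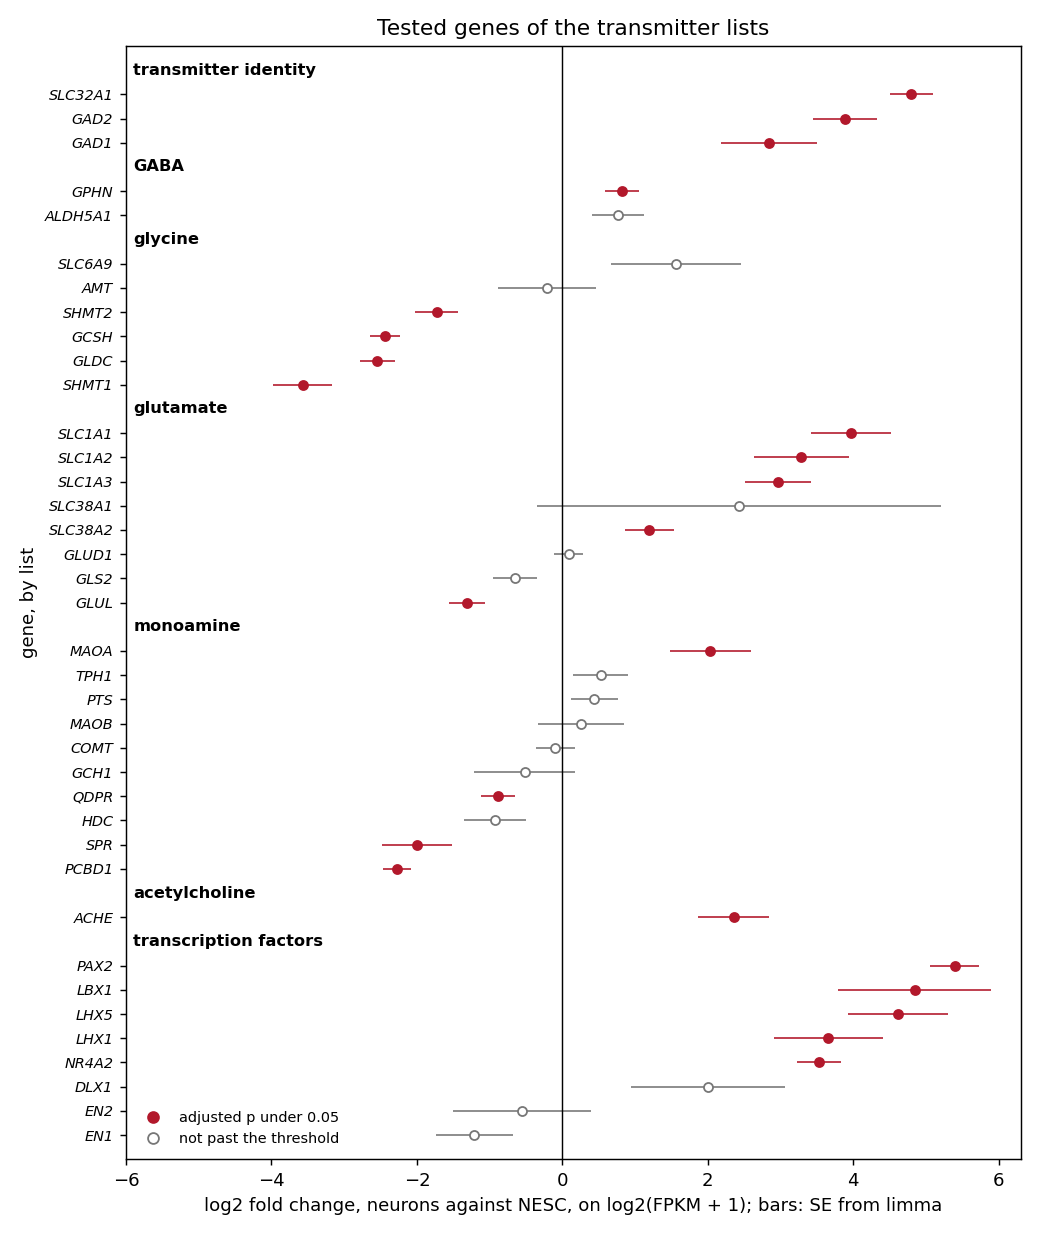
Log2 fold change of neurons against NESC on log2(FPKM + 1) (horizontal axis, with limma standard errors as bars) for tested genes of the transmitter lists (rows), filled where the adjusted p is under 0.05. SLC32A1, GAD2 and GAD1 lie at 4.80, 3.89 and 2.84, and PAX2 is at 5.39. Of 6 glycine genes, 5 lie below 0, and 4 of these are filled.

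Genes with the most similar profiles were sought by the Euclidean distance between log2(FPKM + 1) values over the 5 libraries, each centred on its own mean, among 10834 named genes that reached 20 reads in any library. Closest to SLC32A1 were LIN7A (0.15), a scaffold protein of synapses, the ephrin receptor EPHA5 (0.16) and BCAN (0.17), a proteoglycan of the brain matrix. Among those closest to GAD2 were GALNT9 (0.24) and the G protein subunit GNB5 (0.33). For GAD1 they were ECEL1 (0.38), a neuronal peptidase-like protein, DNER (0.43), a neuronal Notch ligand, and SPNS2 (0.44), a sphingosine phosphate transporter. Each of those nearest to GAD1 was higher at passage 5 than at passages 24 and 36, which the choice by profile favours. DNER was at 2.28, 0.815 and 0.318 FPKM in NESC and 11.0 in neurons. The 3 GABA genes were not each other's nearest: 61 genes lay nearer to SLC32A1 than GAD2 did (1.05), and 328 lay nearer than GAD1 did (1.99). From GAD1, 101 genes lay nearer than GAD2 (1.13). With 5 libraries, of which 1 is far above the rest, many genes share such a profile.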

How the data were processed

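Per the submitters' processing notes, reads were aligned with TopHat2 2.0.9. Neither the labels nor the headers name the counting program, genome build or annotation. Per the file headers, the deposited table gives FPKM for each of 5 libraries. Its normalized counts, a deposited signal, are whole reads times 1 factor per library, and dividing by the factor gave whole reads within 0.1 for all values but 1 of the passage 36 library.

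Genes with at least 1 FPKM and at least 20 reads in a library were tested with limma 3.58.1 (R 4.3.3, trend) on log2(FPKM + 1), in a model with 3 groups and 2 residual degrees of freedom, two-sided, with a threshold of 0.05 on the Benjamini-Hochberg adjusted p over all tested genes. edgeR 4.0.16 (TMM, quasi-likelihood) on recovered reads was an alternative. The fits were tested on simulated data. Intervals are exact and two-sided, made with SciPy 1.17.1.

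RPM is recovered reads scaled to 1000000 per library. The members and lists were chosen with earlier results of these data known, as was the read minimum. Of each list up to 4 genes per comparison were named, by absolute log2 fold change among genes past the threshold, or else among tested genes. SLC17A7, TLX3, the DLX genes, DBH, TPH2, EN2, GCH1, PTS, GFAP, ALDH1L1 and DNER were named after their values were seen, as were those of the closing section. Some genes that the rule names, or that belong to the lists plotted, are not reported here.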

Additional observations from a re-analysis of the deposited data

How the results depend on the processing

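No paired analysis was possible because RPGC and neurons had 1 library each and shared no more than a passage label with NESC. SLC32A1 and GAD2 stayed past the threshold in neurons against NESC in all 10 alternatives, with log2 fold changes of 2.75 to 8.29 and 2.09 to 6.10. Both met the read minimum only in neurons, and every alternative used that same neuron library, so this is a description. GAD1 lost its call in 4, with adjusted p of 0.0737 at a pseudocount of 0.1, 0.0788 without a read minimum, 0.0988 without any filter and 0.0991 without NESC P24. In neurons against RPGC its adjusted p ran from 0.0216 to 0.135. Leaving out each NESC library gave 2164 to 4478 genes called in neurons against NESC (lowest without P24), 0 to 1863 in neurons against RPGC, and 0 to 3 members called there. With FPKM of at least 1 and no read minimum, 106 genes were called in RPGC against NESC and 1101 in neurons against RPGC. With no filter 296 genes and 1 member (DDC, on 2 reads) were called in RPGC, 5 members in neurons against NESC, and 4 in neurons against RPGC. A pseudocount of 0.1 left 1 member called in neurons against RPGC. GAD2 in RPGC against NESC had −0.0050 and −0.067 without NESC P24 and P36, beside 0.35 without P5. Quantile normalization moved the median of all genes in RPGC against NESC by −0.12 and changed no member's sign. Apart from the filters, the cause of these changes was not tested. Depth limits SLC6A5, SLC17A6, SLC18A2 and DDC, each with at most 18 reads in a library: where they are listed at 0, the limit of 3 reads is 0.380 to 0.534 RPM, and the exact two-sided 95% interval reaches 0.467 to 0.656 RPM.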

Other observations

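For 3 transporters of transmitter systems, most reads came from passage 5 NESC. SLC5A7, the choline transporter of cholinergic terminals, was listed at 0 in neurons and RPGC and had 28, 0 and 1 reads in NESC at passages 5, 24 and 36. SLC18A1, the vesicular monoamine transporter of neuroendocrine cells, was also listed at 0 in neurons and RPGC, and had 17, 1 and 0 reads in NESC. SLC6A11, a GABA transporter best known from astrocytes, was at 0.552 FPKM in neurons, 0.123 in RPGC and 2.21, 0.400 and 0 in NESC. In RPM it was 12.6-fold higher at passage 5 than at passages 24 and 36 (95% exact interval 3.70 to 66.4), and SLC1A2 was 75.5-fold higher (12.8 to 3058).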
